A study of Mus musculus with 6 samples.

Results

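UDP-glucuronosyltransferases (UGTs) and cytosolic sulfotransferases (SULTs), the enzymes that conjugate bilirubin, bile acids, hormones and drugs with glucuronic acid or sulfate, were followed in hepatocytes of undamaged and regenerating mouse liver. Members were the protein-coding genes of the GENCODE M21 annotation whose names begin with Ugt1a, Ugt2a, Ugt2b, Ugt3a or Sult1 to Sult6, and they were found in the count data by their versioned Ensembl identifiers. This rule gave 42 of 55450 genes, 21 UGTs and 21 SULTs, and it used no measured value. Bulk RNA-Seq was done on 3 hepatocyte preparations from undamaged liver (0 h) and on 3 from liver 48 h after partial hepatectomy (PHx), an operation that takes out the larger part of the liver and after which the remaining hepatocytes divide. All mice were males on normal diet, of strain C57BL/6 in the labels and C57BL/6J in the methods, 10 to 12 weeks old according to the sample labels, and the labels name no transgene or drug. The 0 h livers came from healthy mice with no sham operation mentioned, so effects of the operation itself and of liver loss cannot be told apart. Hepatocytes were released by collagenase perfusion in both groups.

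UGTs sit in the membrane of the endoplasmic reticulum and transfer glucuronic acid from UDP-glucuronic acid to their substrates, whereas SULTs are cytosolic and take sulfate from 3′-phosphoadenosine-5′-phosphosulfate (PAPS). The conjugates are water soluble and leave the hepatocyte through transporters into bile or blood. The Ugt1a enzymes come from one gene locus with alternative first exons, and most Ugt2 enzymes come from separate genes in a cluster. SULTs differ in whether they prefer phenols, estrogens or hydroxysteroids and bile acids.

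At 48 h after PHx most of the abundant UGT transcripts were lower, while the SULT transcripts went from a mixture led by the bile acid sulfotransferase Sult2a8 to one led by the phenol sulfotransferase Sult1a1. Sult1a1 rose 5.89-fold and Sult2a8 fell 6.99-fold. Bilirubin-conjugating Ugt1a1 fell 2.99-fold, and Ugt1a8, which uses the same downstream exons, rose 6.08-fold from a low level. With Benjamini-Hochberg adjusted p-values from the quasi-likelihood test of edgeR over 17037 genes, 5 of the 26 members that could be tested were higher at 48 h and 14 were lower (adjusted p under 0.05). Of all genes tested, 21.4% were higher and 19.3% lower, 40.7% in either direction. The median log2 fold change of the 26 members was -0.80, against -0.0033 for all genes tested. In 18 of the 26 members, 4 higher and 14 lower, all libraries of one group lay above all libraries of the other, which was the case for 27.8% of all genes in the higher direction and 25% in the lower. In bulk RNA, fewer cells expressing a gene and less of its RNA per cell cannot be told apart.

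Counts on genes came to between 31419443 and 36346220 per library at 0 h and between 31684152 and 33093006 at 48 h. Values are given as CPM, counts scaled to library size after TMM normalization, and levels of different genes are compared only as RPKM, the CPM per kilobase of exon that no other gene overlaps. Hepatocyte markers were abundant in every library, with a summed level of 102205 to 120467 CPM at 0 h and 69129 to 84746 CPM at 48 h, and 1 of the 9 (Fgb) was higher and 4 were lower. Markers of other liver cells were present at low levels and some moved with time. All 8 endothelial markers were lower (213 to 334 CPM summed at 0 h, 158 to 174 CPM at 48 h), 2 of 8 Kupffer cell markers (Marco and Cd5l) were higher (59.3 to 90.5 CPM, then 92.9 to 115 CPM), and 1 of 7 stellate cell markers was higher and 1 lower (64.1 to 105 CPM, then 55.6 to 66.9 CPM). Of 6 cholangiocyte markers, Spp1 was higher while the defining Krt19, Krt7, Epcam and Cftr had at most 0.129 CPM in any library. The 7 neutrophil markers summed to at most 1.06 CPM, with Mpo and Ltf at 0, and the 6 lymphocyte markers to at most 0.392 CPM. Of 4 erythroid markers, Alas2 was lower (55.6 to 86.3 CPM, then 18.6 to 40.2 CPM), and the globin genes had at most 0.171 CPM, with Hbb-bt at 0. Their part in the results was not tested.

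**Figure D1:**
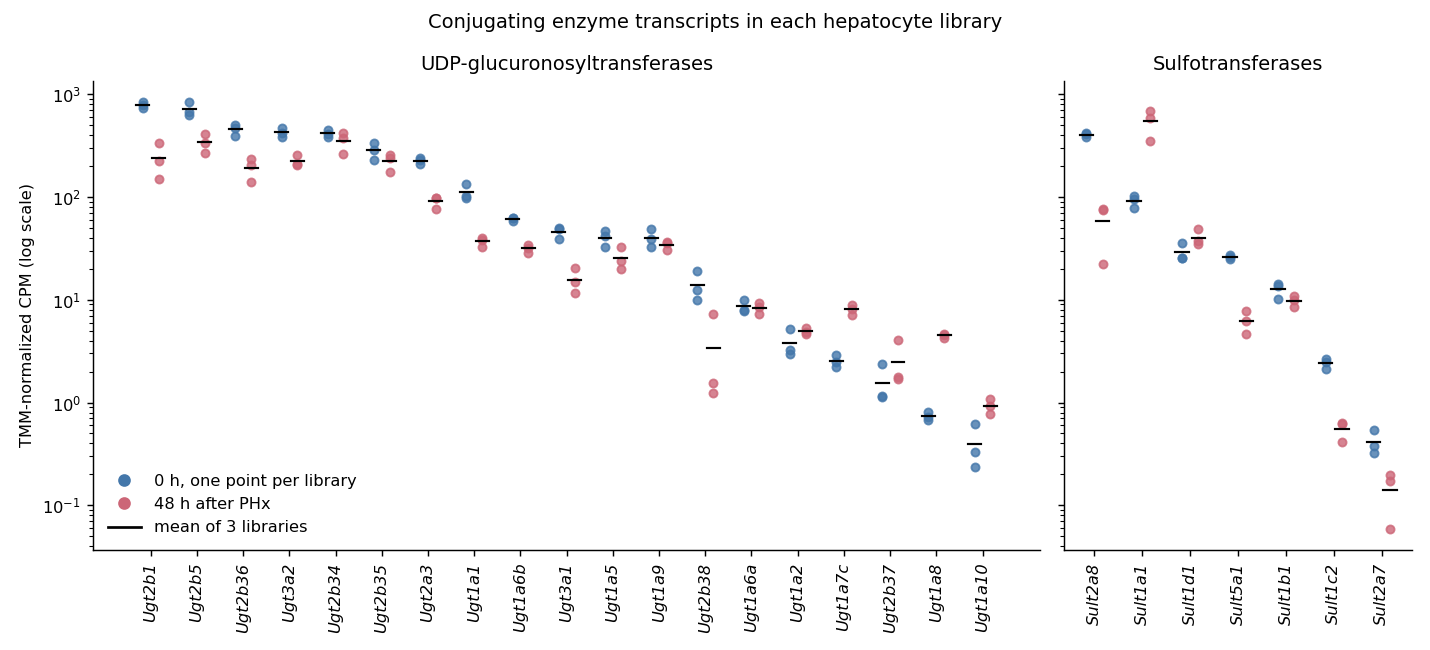
TMM-normalized CPM (log axis) of each of the 26 tested members in the 3 libraries at 0 h (blue) and the 3 at 48 h after PHx (red), with the group mean as a bar. Sult1a1 and Ugt1a8 sit higher at 48 h and Sult2a8, Ugt2b1 and Ugt1a1 lower, with no overlap between the groups; CPM is not corrected for gene length, so heights compare groups and not genes.

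Of the 21 SULTs, 7 passed the filter of at least 10 counts in at least 3 libraries. Of these, 2 were higher, 4 lower and 1 not called at 48 h, beside 21.4% higher and 19.3% lower of all genes tested. The median log2 fold change of the 7, -1.51, was that of Sult2a7, which passed the filter only through its 0 h libraries and is 1 of the 4 lower members.

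Sult1a1, the main phenol sulfotransferase of liver, had 96.0, 78.4 and 102 CPM in the 0 h libraries and 691, 584 and 354 CPM in the 48 h libraries. Every 48 h library lay above every 0 h library, and replicate 1 at 48 h was the highest. The log2 fold change was 2.56 ± 0.232 (SE), a 5.89-fold rise with a 95% interval of 4.12 to 8.42 (edgeR adjusted p = 1.6e-05). Sult1a1 lies at chr7:126672865-126676432 on the minus strand (GRCm38), and 6.59% of the 50-base stretches of its transcripts also occur in the predicted gene Gm6939.

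Sult2a8, the sulfotransferase that acts on bile acids in mouse liver, went the other way, from 385, 407 and 419 CPM at 0 h to 22.4, 74.6 and 76.2 CPM at 48 h. The library with the highest Sult1a1, replicate 1 at 48 h, was also the one with the lowest Sult2a8. Its log2 fold change was -2.81 ± 0.371 (SE; edgeR adjusted p = 0.0002). Without that library the fall was still called, with a log2 fold change of -2.42. Sult2a8 lies at chr7:14410686-14446769, on the same chromosome as Sult1a1 and beside the other Sult2a genes. Its neighbour Sult2a7 was near the detection limit, with 11, 10 and 18 counts at 0 h and 2, 7 and 6 at 48 h. Sult2a7 passed the filter only through its 0 h libraries, and its call (edgeR log2 fold change -1.51, adjusted p = 0.0273) was lost without replicate 1 at 48 h (adjusted p = 0.0909), with DESeq2 (adjusted p = 0.087) and with scaling by library size (adjusted p = 0.0506), and could not be tested without any one of the 0 h libraries.

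Sult5a1, whose substrates are little known, had 26.2, 27.0 and 24.8 CPM at 0 h and 4.69, 6.18 and 7.83 CPM at 48 h, with no overlap. It fell by 2.06 ± 0.171 (SE) on the log2 scale (edgeR adjusted p = 8.5e-06). Sult1c2, a phenol-type sulfotransferase expressed at low level, had 2.48, 2.13 and 2.68 CPM at 0 h and 0.416, 0.615 and 0.628 CPM at 48 h. Its log2 fold change was -2.13 ± 0.26 (SE; edgeR adjusted p = 0.000123). Both sets of libraries were tight within a group relative to the distance between groups.

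Sult1d1, a sulfotransferase of catecholamines and other small phenols, had 25.7, 25.7 and 35.4 CPM at 0 h and 48.3, 37.1 and 34.9 CPM at 48 h. The groups overlapped, since the lowest 48 h library lay below the highest 0 h library. The rise of 0.47 ± 0.162 (SE) on the log2 scale was called by edgeR (adjusted p = 0.0397), but the call was lost on leaving out replicate 1 or replicate 2 at 0 h, or replicate 1 or replicate 2 at 48 h (adjusted p = 0.138, 0.119, 0.151 and 0.0588, edgeR). Sult1b1, which conjugates thyroid hormones and phenols and lies next to Sult1d1 on chromosome 5, had a log2 fold change of -0.38 with a 95% interval of -0.74 to -0.03 (edgeR adjusted p = 0.0812). It passed the threshold without replicate 2 at 0 h (adjusted p = 0.0142, edgeR) and with TMM factors from protein-coding genes (edgeR adjusted p = 0.0434).

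Sult1e1, the estrogen sulfotransferase, had 0 counts in all 3 libraries at 0 h and 95, 5 and 11 counts at 48 h. It was too low for the filter and so was not in the main test. Against a floor of 3 counts per library, a mean of 0.0964 CPM at 0 h, its mean of 1.09 CPM at 48 h was at least 11.3-fold higher. Most of this came from replicate 1, which was at least 29.3-fold above the floor, and the mean of the other libraries was at least 2.36-fold above it. Without the filter, edgeR called Sult1e1 (adjusted p = 2.39e-08), as did DESeq2 (adjusted p = 0.00424). The other 13 untested SULTs had at most 5 counts in any library, and Sult3a2, Sult1c1, Sult2a4, Sult2a3 and Sult2a6 had 0 in all libraries. Coding sequences of Sult2a1 and Sult2a3 to Sult2a6 are 88.0% to 94.9% identical to each other, so reads common to these copies cannot be told apart.

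Summed over the family on the RPKM scale, SULT transcripts came to 211 ± 13.2 (SD, n = 3) in undamaged and 416 ± 115 in regenerating hepatocytes. All 48 h libraries lay above all 0 h libraries, which gives the smallest p that an exact two-sided permutation test of 3 against 3 can reach (p = 0.1). On the CPM scale, which is not corrected for length, the sums overlapped (549 to 599 at 0 h and 484 to 778 at 48 h; exact permutation p = 0.4). The make-up changed more than the sum. Sult2a8 held 58.5% ± 3.07 (SD, n = 3) of the summed SULT RPKM at 0 h and 4.82% ± 3.36 at 48 h. Sult1a1 held 30.2% ± 2.69 at 0 h and 89.5% ± 4.36 at 48 h. Sult1d1, next by mean in both groups, held 5.56% ± 0.725 and 4.04% ± 0.792. At 48 h its libraries (3.37% to 4.92%) overlapped those of Sult2a8 (1.34% to 8.05%), so their order is not separated. In raw counts, which need no scaling, Sult1a1 to Sult2a8 was 0.249, 0.193 and 0.243 in the 0 h libraries and 30.8, 7.83 and 4.64 in the 48 h libraries.

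**Figure D2:**
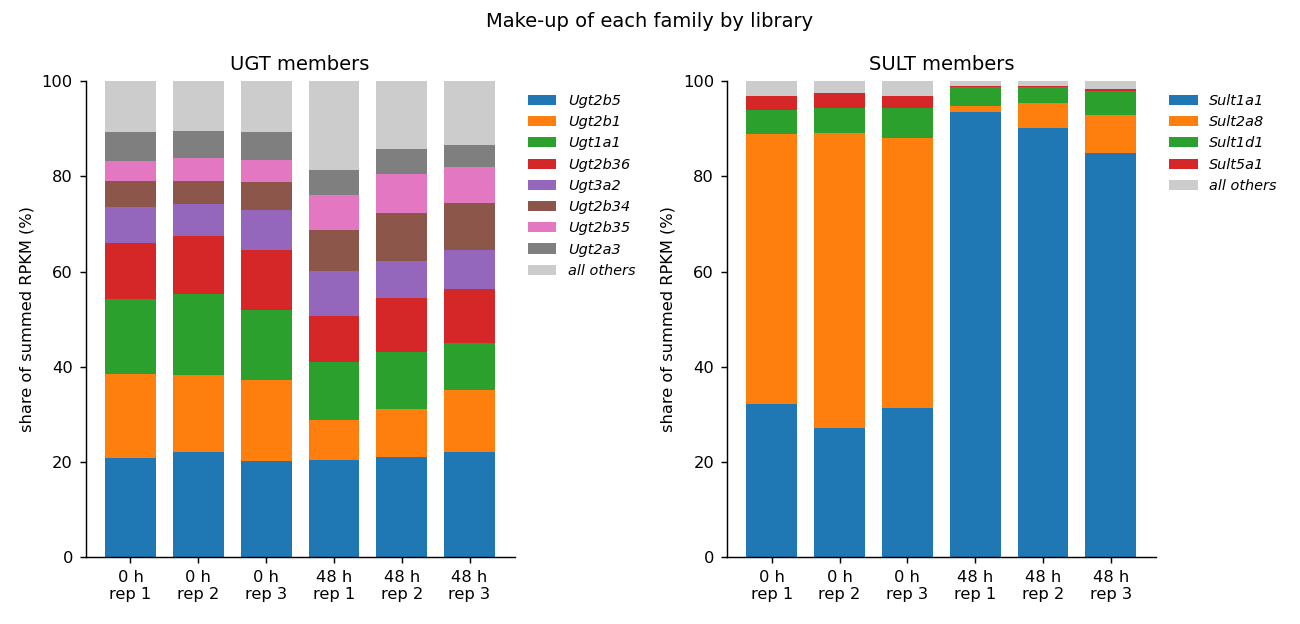
Share (%) of each member in the summed RPKM of its family, one stacked bar per library, for UGTs (left) and SULTs (right). In the SULT panel Sult2a8 takes more than any other member in each 0 h library and Sult1a1 takes 84.8% to 93.5% in each 48 h library; in the UGT panel Ugt2b5 takes 20.2% to 22.2% in every library.

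The 9 Ugt1a members on chromosome 1 each have a coding first exon of their own, and all splice it to the same second exon at chr1:88215044-88215175 (GRCm38). The first exon encodes the substrate-binding part of the enzyme, and in these transcripts it holds 53.6% to 54.2% of the coding bases. The 30 bases across each junction are shown because they mark where each coding first exon meets the exon common to all 9. Lower case is the end of the first exon and capitals are the first bases of the shared exon. The lower-case ends of Ugt1a6a and Ugt1a6b are identical, as are those of Ugt1a5 and Ugt1a2.
Ugt1a10: aggggaagccactttccaagGAATTTGAAG
Ugt1a9: agaagaagtcactttccaagGAATTTGAAG
Ugt1a8: cgggaaagccactttccaagGAATTTGAAG
Ugt1a7c: agggaaagccactttccaagGAATTTGAAG
Ugt1a6b: agaagggaaagctgactcagGAATTTGAAG
Ugt1a6a: agaagggaaagctgactcagGAATTTGAAG
Ugt1a5: ccaagaagcccctctctcagGAATTTGAAG
Ugt1a2: ccaagaagcccctctctcagGAATTTGAAG
Ugt1a1: agaaaaagcccctatcccagGAATTTGAAG

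Reads on exons of more than one gene were not assigned to any gene in these counts, on either strand, since all 1247 genes covered entirely by exons of other genes had 0 counts. Ugt1a counts therefore come from bases outside the shared exons. For Ugt1a10, Ugt1a9, Ugt1a8, Ugt1a6b, Ugt1a5, Ugt1a2 and Ugt1a1 these bases all lie upstream of the shared second exon, so counts follow the first exon. In Ugt1a6b, 79.8% of the 50-base stretches, those in shared exons included, also occur in other genes, mostly Ugt1a6a. Counts of Ugt1a6b therefore also depend on how reads common to these copies were treated, which is not given. Ugt1a1 was counted over 385 bases only, since an antisense gene (Gm20528) overlaps part of its first exon. In Ugt1a6a 89.6% and in Ugt1a7c 52.1% of the countable bases lie from the shared second exon on, so the counts of these members are not specific to their first exon.

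Of the 9, 3 were higher, 3 lower and 3 not called at 48 h, beside 21.4% higher and 19.3% lower of all genes tested. The median log2 fold change of the 9 was -0.04. Ugt1a1, the only enzyme of the family that conjugates bilirubin efficiently, had 97.0, 133 and 102 CPM at 0 h and 32.8, 40.1 and 37.9 CPM at 48 h. No 48 h library came near the 0 h range, and the log2 fold change was -1.58 ± 0.142 (SE; edgeR adjusted p = 1.5e-05). Ugt1a6b, of the Ugt1a6 pair that conjugates small planar phenols, had 58.5, 62.0 and 62.9 CPM at 0 h and 28.6, 31.7 and 34.2 CPM at 48 h. It fell by 0.96 ± 0.104 (SE) on the log2 scale (edgeR adjusted p = 5.6e-05). Its first exon is 97.0% identical in coding sequence to that of Ugt1a6a. The log2 fold change of Ugt1a6a was -0.04 with a 95% interval of -0.40 to 0.31. With the limits on the counts of both genes given above, these values do not compare their first exons.

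Ugt1a5 had 32.7, 46.2 and 41.7 CPM at 0 h and 32.2, 23.7 and 20.1 CPM at 48 h. The groups did not overlap, but the highest 48 h library and the lowest 0 h library nearly met. It fell by 0.67 ± 0.18 (SE) on the log2 scale (edgeR adjusted p = 0.0136), and the call was lost without replicate 2 at 48 h (edgeR adjusted p = 0.0569). Ugt1a9, a phenol-conjugating enzyme, was not called, with a log2 fold change of -0.22 and a 95% interval of -0.54 to 0.11. Ugt1a2 was not called either, with a log2 fold change of 0.38 and a 95% interval of -0.11 to 0.88, but was called higher without replicate 2 at 0 h (log2 fold change 0.66, edgeR adjusted p = 0.0187).

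Ugt1a8 was at 0.681, 0.806 and 0.723 CPM (20, 25 and 24 counts) at 0 h and at 4.69, 4.53 and 4.28 CPM (158, 162 and 150 counts) at 48 h. The groups were far apart and each was tight, and the log2 fold change was 2.61 ± 0.206 (SE), or 6.08-fold with a 95% interval of 4.43 to 8.35 (edgeR adjusted p = 5.9e-06). In humans the enzymes of this name and of UGT1A10 are best known from the gut. Ugt1a7c, the next first exon along the locus, had 2.21, 2.93 and 2.47 CPM at 0 h and 7.13, 8.95 and 8.08 CPM at 48 h, with the limit on its counts given above. Its log2 fold change was 1.66 ± 0.177 (SE; edgeR adjusted p = 4.8e-05). Ugt1a10, the most distant first exon, had 7, 19 and 11 counts at 0 h and 31, 39 and 27 at 48 h. These low counts gave a log2 fold change of 1.23 ± 0.371 (SE; edgeR adjusted p = 0.023), and the call was lost on leaving out replicate 1 or 3 at 0 h or replicate 1 or 2 at 48 h (edgeR adjusted p = 0.0776, 0.0772, 0.0526 and 0.0853).

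The first exons differ in how alike they are. The coding first exon of Ugt1a8 is 82.7% identical to that of Ugt1a9 and 84.2% to that of Ugt1a7c, and 56.3% identical to that of Ugt1a1. Ugt1a10 and Ugt1a9 are 91.2% identical, and their intervals were 0.40 to 2.05 and -0.54 to 0.11 on the log2 fold change scale. Counts relative to Ugt1a1, which need no scaling, were higher in every 48 h library than in any 0 h library for all 8 other members. This was also the case for 88.9% of all other genes tested, so the count shows nothing particular to these members. The ratios of 4 members are given as values only. Ugt1a8 to Ugt1a1 was 0.00608 to 0.00707 at 0 h and 0.113 to 0.143 at 48 h. Ugt1a9 to Ugt1a1 was 0.333 to 0.378 at 0 h and 0.756 to 1.09 at 48 h. Ugt1a6b to Ugt1a1 was 0.468 to 0.615 at 0 h and 0.791 to 0.903 at 48 h. Ugt1a5 to Ugt1a1 was 0.337 to 0.408 at 0 h and 0.530 to 0.984 at 48 h.

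**Figure D3:**
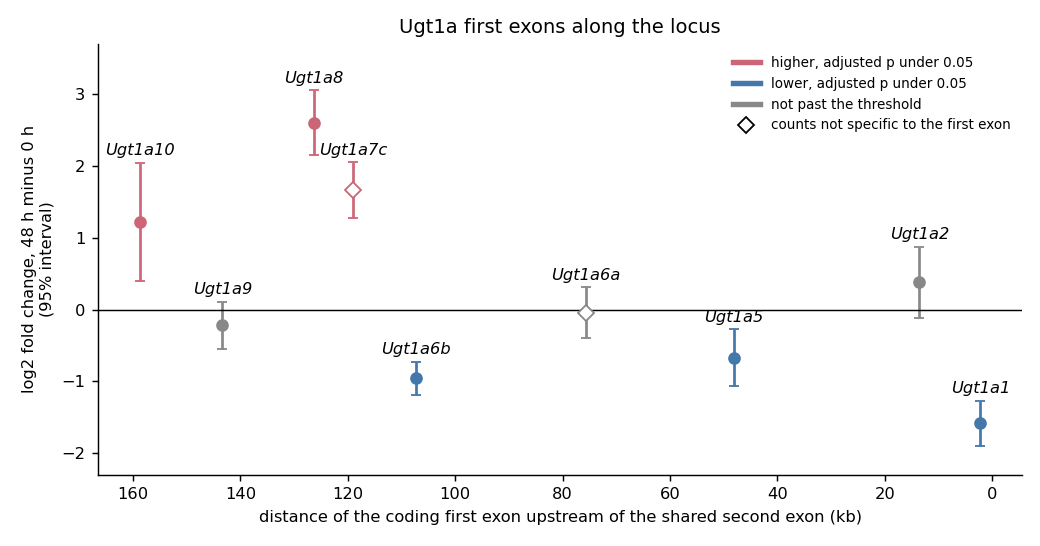
Log2 fold change (48 h minus 0 h, with 95% interval) of each Ugt1a member against the distance of its coding first exon upstream of the shared second exon (kb). Higher members (Ugt1a10, Ugt1a8, Ugt1a7c) lie 119 to 159 kb upstream and lower ones (Ugt1a6b, Ugt1a5, Ugt1a1) 2.17 to 107 kb upstream, while Ugt1a9 at 143 kb was not called; open diamonds mark counts that are not specific to the first exon.

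None of the 8 Ugt2 members tested was higher at 48 h, 5 were lower and 3 were not called, with a median log2 fold change of -1.16. Of all genes tested 21.4% were higher and 19.3% lower. Ugt2 enzymes conjugate steroids, bile acids, fatty acids and many drugs. Only 30 exon bases of Ugt2a1 and 140 of Ugt2a2 are free of exons of other genes. Their 0 counts in all libraries rest on these few bases and say little about their level.

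Ugt2b1 had 737, 831 and 790 CPM at 0 h and 151, 224 and 337 CPM at 48 h, with replicate 1 at 48 h the lowest. Its log2 fold change was -1.73 ± 0.246 (SE), a 3.31-fold fall (edgeR adjusted p = 0.000323). Ugt2b5, the most abundant UGT on the RPKM scale in both groups, had 623, 832 and 677 CPM at 0 h and 268, 338 and 410 CPM at 48 h. It fell by 1.07 ± 0.18 (SE) on the log2 scale (edgeR adjusted p = 0.000946). Of its 50-base stretches 41.7% occur in other genes, mostly Ugt2b38, so its level, rank and share depend on how reads common to these copies were counted, which is not given. Ugt2b36 had 391, 504 and 473 CPM at 0 h and 141, 203 and 233 CPM at 48 h, a log2 fold change of -1.25 ± 0.188 (SE; edgeR adjusted p = 0.000473). Ugt2a3, which is also found in intestine and conjugates bile acids in humans, had 210, 240 and 226 CPM at 0 h and 76.9, 97.2 and 98.5 CPM at 48 h. Its fall of 1.31 ± 0.131 (SE) on the log2 scale (edgeR adjusted p = 3.1e-05) was called in all alternatives, as were those of the other 3. In each of these 4 genes the groups did not overlap.

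Ugt2b38 had 19.1, 9.89 and 12.4 CPM at 0 h and 1.25, 1.54 and 7.31 CPM at 48 h, so that replicate 3 at 48 h lay close to the 0 h libraries. The log2 fold change was -2.03 ± 0.545 (SE; edgeR adjusted p = 0.0131). It was -3.29 without replicate 3 at 48 h, and the call was lost without replicate 1 at 0 h (edgeR adjusted p = 0.0501). The coding sequence of Ugt2b38 is 97.0% identical to that of Ugt2b5, and 37.4% of its 50-base stretches occur in other genes, so the same limit applies to it. Ugt2b37, 94.6% identical to Ugt2b5, was not called, with a log2 fold change of 0.69 and a 95% interval of -0.20 to 1.58.

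Ugt2b34 and Ugt2b35 were among the abundant members and were not called. Ugt2b34 had 383, 412 and 448 CPM at 0 h and 262, 376 and 422 CPM at 48 h, a log2 fold change of -0.23 with a 95% interval of -0.62 to 0.16. The interval for Ugt2b35 was -0.76 to 0.05 around -0.36. Both intervals lie above that of Ugt2b1, which ran from -2.27 to -1.18. In raw counts Ugt2b34 to Ugt2b1 was 0.497 to 0.568 in the 0 h libraries and 1.26 to 1.73 in the 48 h libraries. Ugt2b1 itself fell 3.31-fold, so genes that fell less rise relative to it. The share of all genes that did so was not counted, and the ratio is given as values only. Ugt2b34 and Ugt2b1 are neighbours on chromosome 5, at chr5:86889767-86906937 and chr5:86916638-86926530 (GRCm38).

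Both Ugt3a genes, whose human relatives use sugar donors other than UDP-glucuronic acid, were lower. Ugt3a2 had 380, 423 and 468 CPM at 0 h and 206, 208 and 254 CPM at 48 h, a log2 fold change of -0.93 ± 0.139 (SE; edgeR adjusted p = 0.00044). Ugt3a1 had 38.7, 48.5 and 49.7 CPM at 0 h and 11.6, 15.0 and 20.4 CPM at 48 h, a log2 fold change of -1.54 ± 0.19 (SE; edgeR adjusted p = 0.000129). Their coding sequences are 93.2% identical, and neither gene had overlapping groups.

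**Figure D4:**
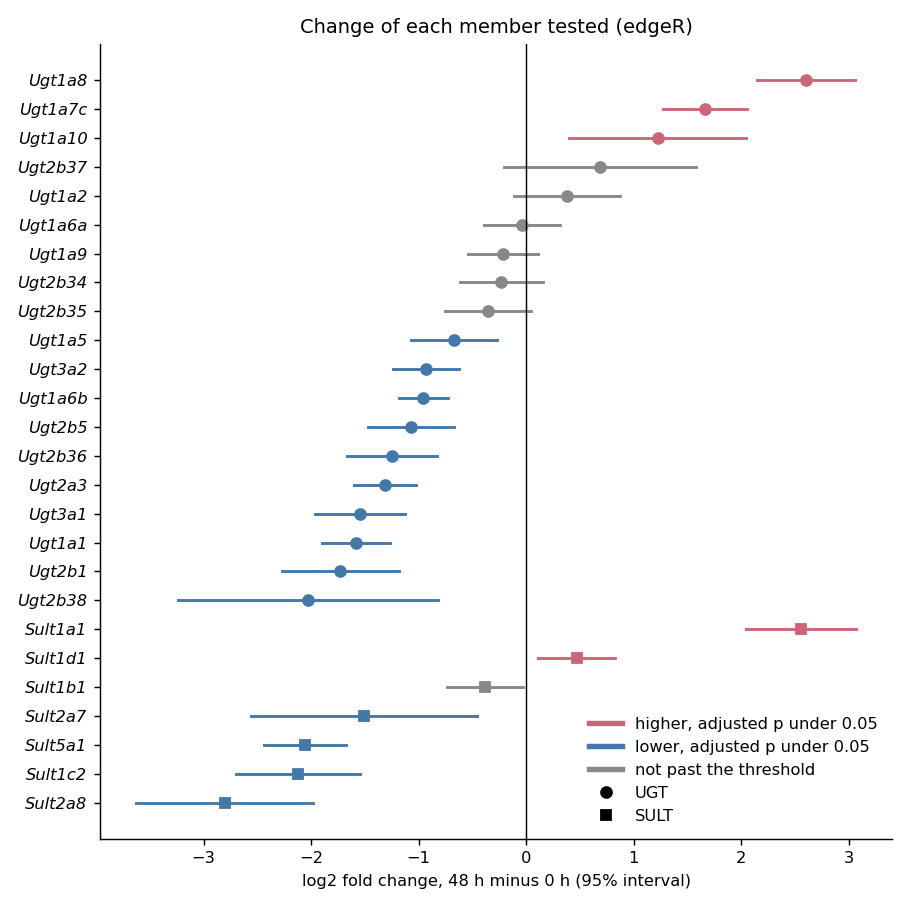
Log2 fold change (48 h minus 0 h) of the 26 tested members with 95% intervals from edgeR, UGTs as circles and SULTs as squares, coloured by call. Intervals of Ugt1a8 and Sult1a1 lie above 2 and that of Sult2a8 reaches from -3.63 to -1.98, while 7 members in grey did not pass the threshold.

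Summed over the family, UGT transcripts came to 1812 ± 201 RPKM (SD, n = 3) in undamaged and 856 ± 148 RPKM in regenerating hepatocytes, without overlap. On the CPM scale the sums were 3247 to 3949 at 0 h and 1447 to 2196 at 48 h, and an exact two-sided permutation test gave its smallest possible p on both scales (p = 0.1). In undamaged hepatocytes the order of mean RPKM was Ugt2b5 (383), Ugt2b1 (305), Ugt1a1 (287), Ugt2b36 (222), Ugt3a2 (137), Ugt2a3 (106), Ugt2b34 (96.1) and Ugt2b35 (84.3). The per-library ranges of Ugt2b1 and Ugt1a1 overlap, as do those of Ugt2a3, Ugt2b34 and Ugt2b35, so these neighbours in the order are not separated. The place of Ugt1a1 also depends on the length used, since over all its exon bases its level is 49.7 RPKM. At 48 h the order was Ugt2b5 (182), Ugt1a1 (95.9), Ugt2b36 (93.4), Ugt2b1 (92.3), Ugt2b34 (82.0), Ugt3a2 (71.7), Ugt2b35 (65.9) and Ugt2a3 (42.9), and from Ugt1a1 to Ugt2b35 each member's libraries overlap those of the next. Ugt2b5 held 21.1% ± 1.04 (SD, n = 3) of the summed UGT RPKM at 0 h and 21.2% ± 0.807 at 48 h. The share of Ugt2b1 was 16.9% ± 0.88 and then 10.5% ± 2.4, and that of Ugt2b34 5.33% ± 0.527 and then 9.51% ± 0.765. Neither of the last pair overlapped between groups, and how many of all genes would move likewise against the falling UGT sum was not counted.

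Replicate 1 at 48 h was at the far end of the group in many of these genes, with the highest Sult1a1 and Sult1e1, the lowest Sult2a8, Ugt2b1, Ugt2b5 and Ugt2b36 and the lowest UGT sum. Without it, 10 UGTs and 3 SULTs were lower and 2 UGTs and 1 SULT higher.

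Of 34 tested genes that provide cofactors, export or cleave conjugates or regulate conjugating enzymes, 7 were higher and 8 lower, shares near the 21.4% and 19.3% of all genes tested, and their median log2 fold change was -0.14. In the supply of UDP-glucuronic acid, Ugdh, which oxidizes UDP-glucose to UDP-glucuronic acid, had 121, 106 and 130 CPM at 0 h and 165, 194 and 223 CPM at 48 h. Its rise of 0.71 ± 0.139 (SE) on the log2 scale was called (edgeR adjusted p = 0.00245), and Ugp2 and the transporter Slc35d1 were not called. None of the 3 genes that carry glucuronate on to ascorbate (Akr1a1, Rgn and Gulo) was called, with log2 fold changes of -0.26 to -0.0022 and intervals within -0.55 and 0.33.

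In sulfate and PAPS supply, 3 of 10 genes were higher and 3 lower, beside 21.4% and 19.3% of all genes tested. The lower ones were Cdo1 and Suox, which lead from cysteine to sulfate, and the sulfate transporter Slc26a1, with log2 fold changes of -1.33, -1.23 and -0.50 (edgeR adjusted p = 0.000327, 8.4e-05 and 0.0187). Higher were the PAPS synthase Papss1 at 0.68, Impad1, which clears the spent cofactor, at 0.35, and the sulfate transporter Slc13a1 at 3.22 (edgeR adjusted p = 0.0292, 0.0193 and 0.0033). Slc13a1 had 4, 0 and 2 counts at 0 h and 15, 17 and 34 at 48 h, below 1 CPM in all libraries, and passed the filter only through its 48 h libraries, so its place among the 3, and among the 7 higher of the 34, was set in part by the filter. Papss2, the other PAPS synthase, was not called (log2 fold change -0.27, 95% interval -0.67 to 0.14).

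Of 4 transporters of conjugates, 3 were lower, beside 19.3% of all genes tested. Abcc3, which moves glucuronides into blood, had 613, 776 and 758 CPM at 0 h and 212, 217 and 215 CPM at 48 h, a log2 fold change of -1.74 ± 0.137 (SE; edgeR adjusted p = 5.7e-06). Abcg2 and Abcc2, which export conjugates into bile, had log2 fold changes of -0.75 and -0.52 (edgeR adjusted p = 0.000325 and 0.0126). Of 3 tested hydrolases of conjugates, the sulfatase Arsa was lower, at -0.46 (edgeR adjusted p = 0.00693), while Gusb, the lysosomal beta-glucuronidase, was not called (log2 fold change 0.04, 95% interval -0.23 to 0.31). Sts was not analysed here. Scaled by library size alone, Abcc2, Arsa and Slc26a1 lost their calls, and the regulators Hnf4a and Nr1i2 were called higher (edgeR adjusted p = 0.0315 and 0.0415), which made 9 genes higher and 5 lower. On leaving out one library, Papss1 lost its call without replicate 2 at 0 h or replicate 1 at 48 h (edgeR adjusted p = 0.0615 and 0.0998). Impad1 lost it without replicate 1 at 0 h or replicate 3 at 48 h (edgeR adjusted p = 0.0908 and 0.0604). Slc26a1 lost it without replicate 1 or 3 at 0 h or replicate 1 at 48 h (edgeR adjusted p = 0.0512, 0.0722 and 0.053), and Slc13a1 could not be tested without any one of the 48 h libraries.

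Among 11 transcription factors known to act on conjugating enzymes, Ahr, Nfe2l2 and Esr1 were higher, with log2 fold changes of 0.98, 0.71 and 0.87 (edgeR adjusted p = 0.000395, 0.000595 and 0.0022). Stat5b, which mediates growth hormone signals in liver, was lower, at -1.02 (edgeR adjusted p = 5.9e-05). The remaining 7, among them the xenobiotic receptors Nr1i2 and Nr1i3 and the hepatocyte factor Hnf4a, were not called with TMM. Nr1i3 was counted over 25.1% of its exon bases only.

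**Figure D5:**
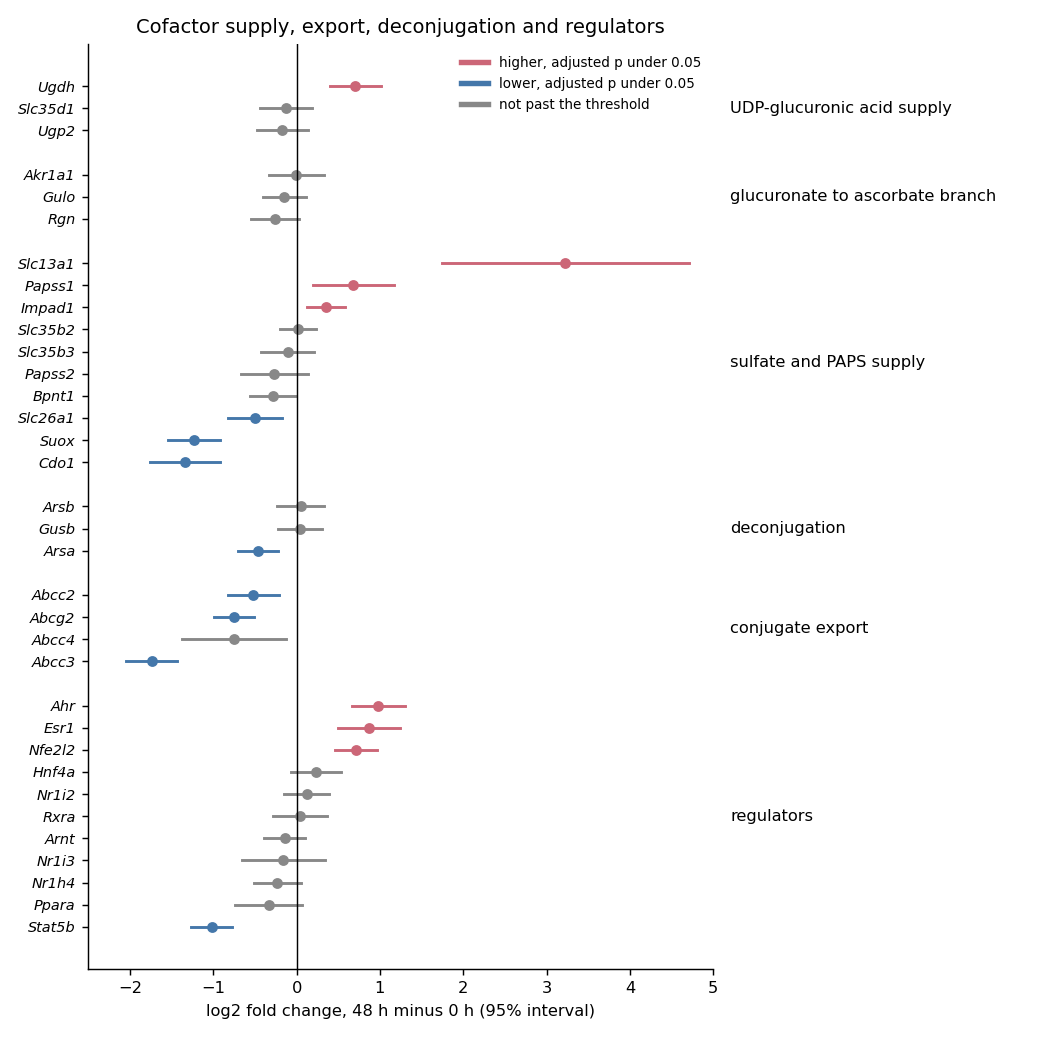
Log2 fold change (48 h minus 0 h) with 95% interval of the 34 tested genes around conjugation, grouped by role and coloured by call. Ugdh, Papss1, Impad1, Slc13a1 (at most 34 counts in a library), Ahr, Esr1 and Nfe2l2 lie to the right of 0 and the exporters Abcc3, Abcg2 and Abcc2 to the left.

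RefSeq promoters on GRCm38.p6, as 300-base windows around start sites, were matched for 36 of the 42 members and gave 39 windows. No window was matched for Sult2a1, Sult2a2, Sult2a7, Sult4a1, Ugt1a6b and Ugt3a2. Of 6 short motifs searched on both strands, TATAAA was found in 11 windows (13.6% of 32851 RefSeq promoters), the nuclear receptor half-site AGGTCA in 10 (16.3%) and the xenobiotic response core GCGTG in 6 (32.4%). The STAT motif TTCNNNGAA was found in 2 windows (8.3%), the HNF4 motif CAAAGTCCA in 1 (0.475%) and the antioxidant response element TGACNNNGC in 0 (12.4%). A match describes the letters only and says nothing on binding.

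The windows of Ugt1a8 and Ugt1a1 are given because these first exons of one locus moved in opposite directions. A window of Sult2a8 is given because it fell most among the SULTs. This window lies at a start site inside the annotated gene and not at its annotated start. Capitals mark every match to the motifs searched, which were the xenobiotic response core on the opposite strand in Ugt1a8 and TATAAA and 2 nuclear receptor half-sites in Sult2a8, and Ugt1a1 held none.
Ugt1a8, chr1:88087578-88087877, plus strand: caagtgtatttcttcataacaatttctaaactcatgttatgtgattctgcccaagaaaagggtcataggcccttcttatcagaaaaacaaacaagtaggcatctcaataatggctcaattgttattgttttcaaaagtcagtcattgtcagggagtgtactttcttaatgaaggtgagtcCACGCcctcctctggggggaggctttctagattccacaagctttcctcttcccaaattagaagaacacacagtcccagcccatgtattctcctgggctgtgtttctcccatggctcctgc
Ugt1a1, chr1:88211709-88212008, plus strand: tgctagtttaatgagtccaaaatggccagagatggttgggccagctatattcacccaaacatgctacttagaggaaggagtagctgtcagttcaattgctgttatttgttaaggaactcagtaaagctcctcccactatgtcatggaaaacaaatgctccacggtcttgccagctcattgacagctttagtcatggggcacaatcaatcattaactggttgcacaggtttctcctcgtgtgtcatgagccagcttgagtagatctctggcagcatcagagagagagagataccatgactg
Sult2a8, chr7:14438502-14438801, minus strand: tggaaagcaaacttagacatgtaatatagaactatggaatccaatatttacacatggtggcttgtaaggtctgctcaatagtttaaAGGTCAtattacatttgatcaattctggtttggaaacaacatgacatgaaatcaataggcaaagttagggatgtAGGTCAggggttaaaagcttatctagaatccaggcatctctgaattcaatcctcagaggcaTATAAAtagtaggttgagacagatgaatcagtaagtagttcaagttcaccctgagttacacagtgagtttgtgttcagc
The other window of Sult2a8, chr7:14446538-14446837, covers the annotated start of the gene. It held TATAAA on the opposite strand and no AGGTCA. The window of Sult1a1 held none of these motifs.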

How the data were processed

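The authors deposited raw read counts per gene for 6 libraries, without normalization. The submitters' processing notes name FastQC 0.11.5, Trim Galore 0.6.4, STAR 2.6, HTSeq 0.12.4, DESeq2 and the mm10 genome, and the strand and counting settings are not given in the sources used here. The counts themselves show that strand was ignored and that reads on several genes were left unassigned, because 460 genes lying wholly under exons of the opposite strand had 0 counts. Such reads made up 4.47% ± 0.199 (SD, n = 3) of listed reads at 0 h and 4.94% ± 0.341 at 48 h, and reads aligning to several places are listed as 0. Genes that overlap exons of other genes, antisense genes included, therefore lose reads. How reads common to near-identical copies were treated is not given in the sources used here.

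Libraries were assigned to groups by sample title. The methods describe separate preparations from different mice, and give a slightly younger age than the labels. The genes that reached 10 counts in 3 or more libraries were fitted with edgeR 4.0.16 in R 4.3.3 (TMM, factors 0.914 to 1.11; glmQLFit and glmQLFTest; time as the only term), with Benjamini-Hochberg adjustment over all genes tested and a threshold of 0.05. The SE is the log2 fold change divided by the square root of F. The script was tested on simulated data. Alternatives used DESeq2 1.42.0, limma 3.58.1 (voom), other scalings, other filters, a replicate block and leaving out each library. Replicates differed by more than sampling noise. Same-numbered libraries did not deviate together (correlations of 0.0335, -0.0674 and -0.138), so they were not treated as pairs. Where a gene had 0 counts, a floor of 3 counts per library was used, which covers counting error only, since reads carry no molecular identifiers.

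Members and gene lists were chosen with earlier results of these data known. Values per library were to be given for each called member with a mean of at least 1 CPM and the 3 members of each family with the highest mean RPKM. Ugt1a10, Sult2a7, Sult1e1, Sult1b1 and the UGTs that were not called were named in addition, after their values were seen. Windows and sequences came from GENCODE M21 and RefSeq. No protein sequence was used here. Some genes and motifs of these lists are not reported here.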

Additional observations from a re-analysis of the deposited data

How the results depend on the processing

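Of the 17 called members named by rule, 14 were called under all 14 alternatives, and Sult1d1, Ugt1a5 and Ugt2b38 lost the call in at least one. None of these 17 changed direction. Ugt1a6a, which was not called, went from a log2 fold change of -0.04 to 0.16 with scaling by library size alone, to 0.08 without replicate 2 at 0 h and to 0.05 without replicate 1 at 48 h. The count of lower UGTs was 10 under every scaling, test and filter and 9 or 10 on leaving out a library, and that of higher UGTs was 2 to 4, with Ugt1a2 added without replicate 2 at 0 h. Higher SULTs numbered 2, with 1 to 2 on leaving out a library and 1 with the replicate block, under which Sult1d1 had an adjusted p of 0.0592 (edgeR) and no other named member lost its call. The block rests on numbers that did not pair the libraries (mean correlation -0.0572 within numbers, 0.0289 between). Higher SULTs were 3 with DESeq2 and without the filter, through Sult1e1. Lower SULTs were 4, with 3 to 5 elsewhere. Scaling by library size alone moved the median log2 fold change of all genes by 0.20, with 2110 genes lower instead of 3288, 5308 higher instead of 3638 and 5 instead of 8 pathway genes lower and 9 instead of 7 higher. Leaving out one library gave 5 to 7 pathway genes higher and 7 to 9 lower, and TMM factors from protein-coding genes gave 10 lower, with Abcc4 and Bpnt1 added. Levels per kilobase of Ugt1a members depend on the length: over all exon bases the mean RPKM at 0 h was 49.7 instead of 287 for Ugt1a1 and 25.7 instead of 65.2 for Ugt1a6b. With 3 libraries a group, members under 1 CPM rest on few counts and differences smaller than the intervals given could not be seen.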

Other observations

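Other genes of conjugation are given from lists chosen after seeing the data, as values only. Of all genes tested 21.4% were higher and 19.3% lower. Of 6 methyltransferases of small molecules, 2 were higher and 2 lower. Nnmt, which methylates nicotinamide, had 34.4, 25.8 and 37.0 CPM at 0 h and 176, 110 and 79.3 CPM at 48 h, a log2 fold change of 1.91 (edgeR adjusted p = 0.000228). Inmt, which methylates indoleamines, had 295, 295 and 382 CPM at 0 h and 18.9, 79.1 and 24.8 CPM at 48 h, a log2 fold change of -2.98 (edgeR adjusted p = 0.000506). As3mt, the arsenic methyltransferase, was higher, at 0.62, and Gnmt was lower, at -0.74 on the log2 scale. Of 3 genes listed for amino acid conjugation, Baat (-0.77) and Acsm1 (-0.60) were lower and Glyat was not called. The acetyltransferases Nat1 and Nat2 were not called and Nat8 was lower, at -1.50.

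Membrane-bound sulfotransferases, which act on proteoglycans and glycolipids in the Golgi and are not members by name, were counted in full. Of 38 such genes 16 were tested, of which Hs2st1 was higher (log2 fold change 0.40). Lower were Ndst1, Ndst2, Chst15 and Chst2 (-0.63, -0.37, -1.09 and -0.96). Of all genes tested 40.7% were called in either direction, and a difference from this share was not tested. Ugt8a, the UDP-galactose ceramide transferase, had 3 counts in one 0 h library and 0 in the others. The 6 family genes that are not protein coding had at most 1 count.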
